A study of Homo sapiens with 5 samples.

Results

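STC2 encodes stanniocalcin 2, and the data below are the SMAD2 binding summits listed around this gene in T47D cells. The region covers 172.7 to 172.8 Mb of chromosome 5 on the genome build hg19, in which STC2 spans 172741.7 to 172756.5 kb. STC2 lies on the minus strand, so it starts at 172756.5 kb and ends at 172741.7 kb. The locus was chosen by measured values: among summits found with 1 treatment alone, those near the STC2 end had high ranks and lay close to each other. Their positions, ranks and distances are therefore given as a description, without a test. The region held 37 of the 233945 summits of the series on chromosomes 1 to 22 and X.

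T47D is an established human luminal breast cancer line that is positive for the estrogen receptor. SMAD2-bound DNA was recovered with an anti-SMAD2 antibody and sequenced in 4 libraries. In the activin group (2 libraries), cells received recombinant activin A at 50 ng/ml for 1.5 h. In the palbociclib group (2 libraries), cells received palbociclib at 1 µM for 24 h and the same dose and time of activin A. The fifth sample is input DNA of untreated cells, which served for peak calling and has no summit list analysed here. All summits thus come from activin-stimulated cells, and binding without activin was not analysed here. The activin lists were 51535 and 54243 summits long, and the palbociclib lists 62960 and 65207 summits.

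Stanniocalcin 2 is a secreted glycoprotein. It is known to inhibit pappalysin 1, a protease that releases insulin-like growth factors from their binding proteins, and the gene is known as an estrogen-induced gene of hormone-responsive breast cancer cells. SMAD2 is phosphorylated by the activated activin receptor, joins SMAD4 and enters the nucleus, where the complex binds DNA together with other transcription factors. Palbociclib blocks the cyclin-dependent kinases CDK4 and CDK6. In the RefSeq gene order of GRCh38.p14, the nearest protein-coding gene beyond the STC2 end is NKX2-5, a cardiac homeobox transcription factor, and the nearest before its start is BOD1, a protein of chromosome segregation. The positions of both on hg19 were not used here.

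Each library had its strongest summit of the region at the STC2 end, but at 2 separate places. Each summit is a single base and carries a score, read as −log10 of the q-value from peak calling against the input. Scores and ranks (rank 1 is the highest score of a list) describe a summit within its own list, and read depth is unknown, so scores of different lists are not compared as amounts of binding.

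In activin replicate 1 the strongest summit lay at 172742841, with a score of 292 and rank 145. In activin replicate 2 it lay at 172742728, with a score of 387 and rank 69. These positions were 1.1 and 1.0 kb inside the gene, counted from its end. In palbociclib replicate 1 the strongest summit lay at 172741468, with a score of 532 and rank 69, and in palbociclib replicate 2 at 172741624, with a score of 490 and rank 60. Both palbociclib positions were just past the end of the gene, by 0.2 and 0.1 kb. The gene end is known here only to 0.1 kb, so these distances are approximate. Both palbociclib positions lay outside the labelled gene span, and whether the enrichment around them reached into the gene was not tested. Each of the 4 summits belonged to the strongest 0.281% of its list.

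The treatments did not overlap in the position of this summit. The activin replicates lay 113 bp apart and the palbociclib replicates 156 bp apart. The 4 distances between an activin and a palbociclib library were 1104, 1217, 1260 and 1373 bp. The mean position was 172742784.5 ± 79.9 bp (SD, n = 2) with activin and 172741546 ± 110.3 bp (SD, n = 2) with palbociclib. The activin mean was thus 1238.5 bp further into the gene. The narrowest gap between the treatments, 1104 bp, was 7.08 times the larger distance between replicates. Without each library in turn, the difference of the means (1238.5 bp) ranged from 1160.5 to 1316.5 bp. Separate cultures are not stated for the replicates, so this spread may be technical.

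No list had a summit at both places. In the activin lists, the next summits below the gene-end summit lay 23537 bp away in replicate 1 and 3453 bp away in replicate 2, so neither had one at the palbociclib place. In the palbociclib lists, the next summits above lay 7071 bp away in replicate 1 and 15361 bp away in replicate 2, so neither had one at the activin place. The files hold 1 position for each called stretch of enrichment, without its width, and no summit name bore the letter suffix that marks several summits in 1 stretch. The closest 2 summits of a list were 69 to 103 bp apart in the 4 lists. A place without a summit is therefore not a place without SMAD2, and whether the signal was present at both places in each library was not tested.

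**Figure D1:**
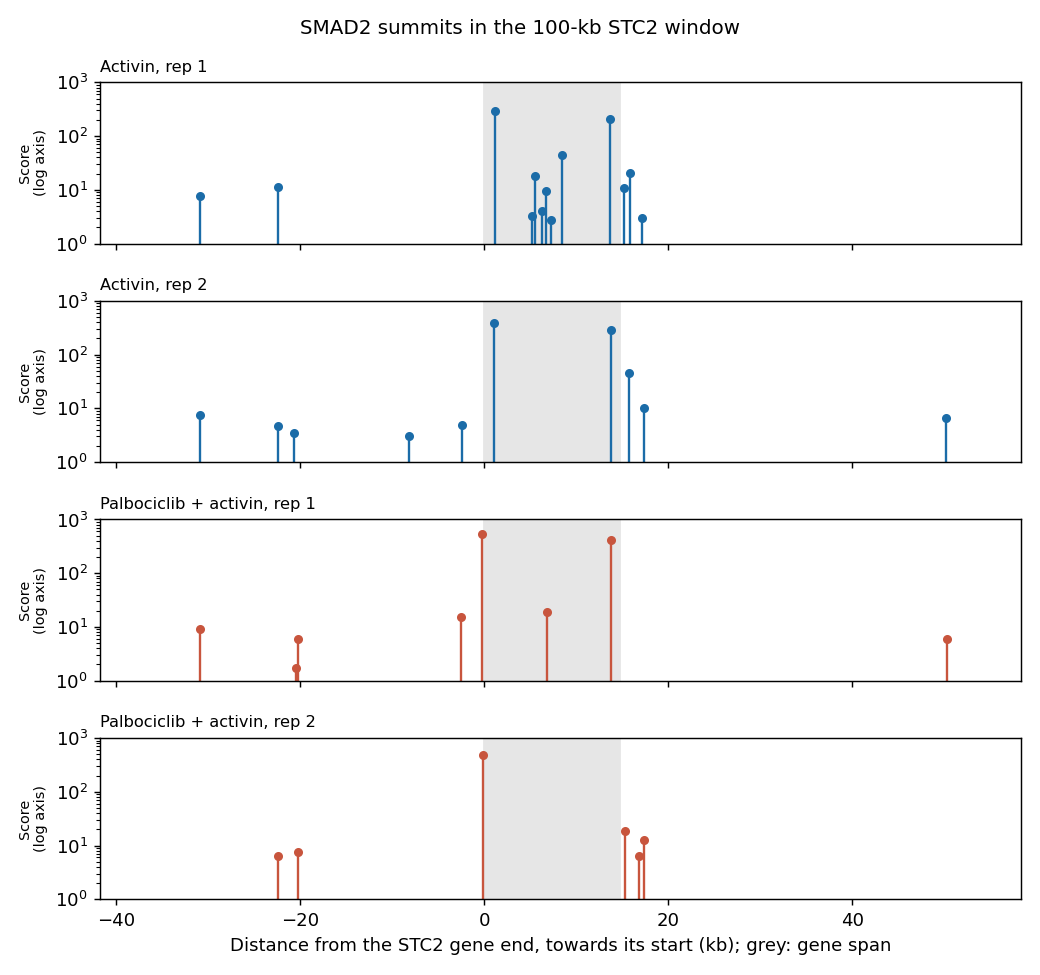
Summit scores (vertical, log axis, −log10 q within each list) against distance from the STC2 gene end (horizontal, kb, the gene start to the right) in the 100-kb window, with 1 panel for each library and the gene span in grey. The tallest summit sits 1.1 and 1.0 kb inside the gene in the activin panels and 0.2 and 0.1 kb past its end in the palbociclib panels, and palbociclib replicate 2 has no summit inside the labelled gene span.

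A second strong summit marked the start side of STC2 in 3 of the 4 libraries. It lay at 172755384 in activin replicate 1, with a score of 208 and rank 393. In activin replicate 2 it lay at 172755453, with a score of 287 and rank 160. In palbociclib replicate 1 it lay at 172755478, with a score of 417 and rank 151. These 3 positions fell within 94 bp, and the palbociclib position was 25 bp from activin replicate 2 and 94 bp from activin replicate 1. The activin replicates were 69 bp apart on this side, so the palbociclib position lay about as far from them as they lay from each other. The start-side summit ranked below the gene-end summit in each of the 3 lists. From the gene-end to the start-side summit it was 12543 bp in activin replicate 1, 12725 bp in activin replicate 2 and 14010 bp in palbociclib replicate 1.

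Palbociclib replicate 2 listed no summit at that place. Its gene-end summit at 172741624 was followed by 15.4 kb without a summit, up to 172756985, where the score was 18.8 and the rank 18537. That next summit already lay 0.5 kb before the gene start. The opposite neighbour was 20.1 kb away. Of the 1000 strongest summits of that list, 108 (10.8%) had their nearest neighbour further away than 15361 bp. The same share was 33.8% and 35.9% for the gene-end summits of activin replicates 1 and 2, whose nearest neighbours lay 4117 and 3453 bp away. For palbociclib replicate 1, whose nearest neighbour lay 2227 bp away, it was 41.7%. Whether the enrichment of palbociclib replicate 2 was called as 1 long stretch across the gene was not tested, since the lists give no widths.

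Few strong loci lacked a nearby summit in 1 list. Across the genome, 819 loci held a summit of rank 1 to 1000 from at least 3 libraries. At 4 of them (0.488%), exactly 3 libraries had such a summit and the other list had none of any rank within 1 kb. The STC2 start side was 1 of these 4, and the list without a summit was palbociclib replicate 2 at 2 loci, palbociclib replicate 1 at 1 locus and activin replicate 2 at 1 locus. With 2 kb in place of 1 kb, 3 loci were left. The STC2 start side was not among them, because palbociclib replicate 2 listed the summit at 172756985. The 819 loci include 597 with a summit of rank 1 to 1000 from each of the 4 libraries, which could not be counted. Among the remaining loci the share is thus higher than 0.488%. Either share describes the lists, and this comparison was chosen after the STC2 summits had been seen.

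**Figure D2:**
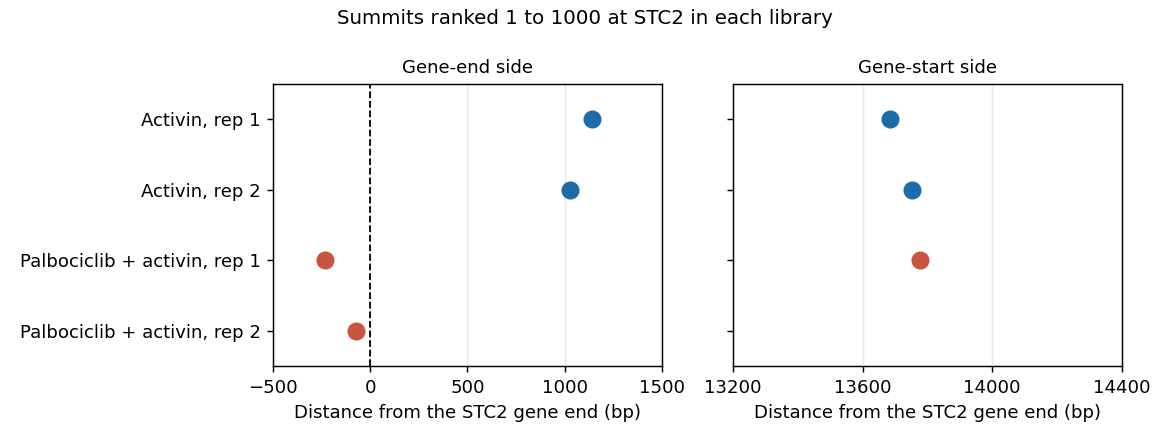
Positions of the summits of rank 1 to 1000 at STC2 (horizontal, bp from the gene end, dashed line at the end itself; positive values lie inside the gene), with 1 row for each library and a panel for either side of the gene. On the gene-end side the activin and palbociclib points are at least 1104 bp apart, whereas on the start side the 3 points lie within 94 bp and palbociclib replicate 2 has none.

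The start-side summits lay 1.0 to 1.1 kb inside the hg19 span of the gene and 13.7 to 13.8 kb from its end. The RefSeq record of STC2 on GRCh38.p14 is 13692 bases long, which is 1.1 kb shorter than the 14.8 kb span on hg19. If both records end at the same base, which was not checked, the RefSeq start would fall at the 3 strong start-side summits. The promoter of that record is shown for this reason. It covers the 250 bases before the start, chr5:173328415-173328664 on the minus strand of GRCh38.p14, read 5′ to 3′ along the gene and credited to RefSeq. Capitals mark GTCT, the core of the SMAD box, and GGCGC, a GC-rich element that SMAD proteins are also known to bind.

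STC2 promoter: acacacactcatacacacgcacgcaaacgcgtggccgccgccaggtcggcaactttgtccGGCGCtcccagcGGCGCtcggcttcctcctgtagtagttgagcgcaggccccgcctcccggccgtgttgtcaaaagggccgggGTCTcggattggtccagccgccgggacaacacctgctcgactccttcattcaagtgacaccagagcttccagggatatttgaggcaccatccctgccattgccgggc

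The window held 1 GTCT, from 107 to 104 bases before the start, and 2 GGCGC, from 190 to 186 and from 178 to 174 bases before it. Both strands were searched, with AGAC and GCGCC as the reverse complements. Among 35116 RefSeq promoters cut to the same length, 77.5% held GTCT or AGAC, with a median of 1 match, so the single match at STC2 is the usual number. GGCGC or GCGCC occurred in 44.5% of the promoters, and 30.8% had at least the 2 matches of STC2. CAGAC, which contains AGAC, had no match at STC2 and occurred in 38.0% of the promoters. The AP-1 motif TGANTCA occurred in 6.57%, the E-box CACGTG in 6.34% and the perfect estrogen response element in 0.0399% of promoters, and none of them in this window of STC2. Of the bases, 63.6% were G or C, against a median of 58.0% over the promoters. A match is a description of the letters and not a measured site. The sequence at the gene end, where the shift lay, was not read, because no genome of the files' build was used here.

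The gap at the STC2 end was the widest among the strong loci shared by the 4 libraries. STC2 was chosen on these same summits, so its place in this order is a description and adds no support. For this background, the summits of rank 1 to 1000 of each list were pooled and chained into loci over gaps of at most 2 kb. Summits of the treatments over 2 kb apart, with no other such summit between them, thus fell into separate loci. Their gaps could not appear here. In 597 loci each of the 4 libraries had such a summit, and the strongest of each library was taken. At 445 of the loci (74.5%) the positions of the 2 treatments overlapped, and at 99.3% the gap was at most 100 bp. The replicates lay a median of 14 bp apart with activin and 16 bp apart with palbociclib. The distance of 113 bp between the activin replicates at STC2 was reached or exceeded at 28 loci, STC2 included, and the 156 bp between the palbociclib replicates at 8. Summits at STC2 were thus also less tightly placed within each treatment than at most strong loci.

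A locus was called shifted where the treatments did not overlap, the gap was over 200 bp, and the gap exceeded the distance between the replicates of either treatment. This held at 2 of the 597 loci, or 0.335%. One was STC2, whose choice rested on the same summits, so its call adds no support. The other lay on chromosome 11, with activin summits at 1760711 and 1760779 and palbociclib summits at 1758766 and 1759655. Its gap was 1056 bp, but its palbociclib replicates were 889 bp apart, so the gap was barely wider than that distance. Its ranks were 278 and 344 with activin and 456 and 312 with palbociclib, all lower in the lists than those of STC2. The next widest gap among the 597 loci was 119 bp. Distances as large as the STC2 gap also occurred between replicates: the activin replicates lay at least 1104 bp apart at 2 loci, and the palbociclib replicates at 0 loci.

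The call depended on how loci were joined and which libraries entered. With a chaining distance of 1 kb, 0 loci were called, because the STC2 summits of the 2 treatments then form separate loci by construction. Among summits of rank 1 to 5000, 28 of 3354 loci were called (0.835%), and 6 of these 28, STC2 included, had a gap of at least 1104 bp. Without activin replicate 1, 8 of 675 loci were called; the activin group then has 1 library and no distance between replicates. STC2 was among the called loci in each of these settings except the chaining distance of 1 kb.

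**Figure D3:**
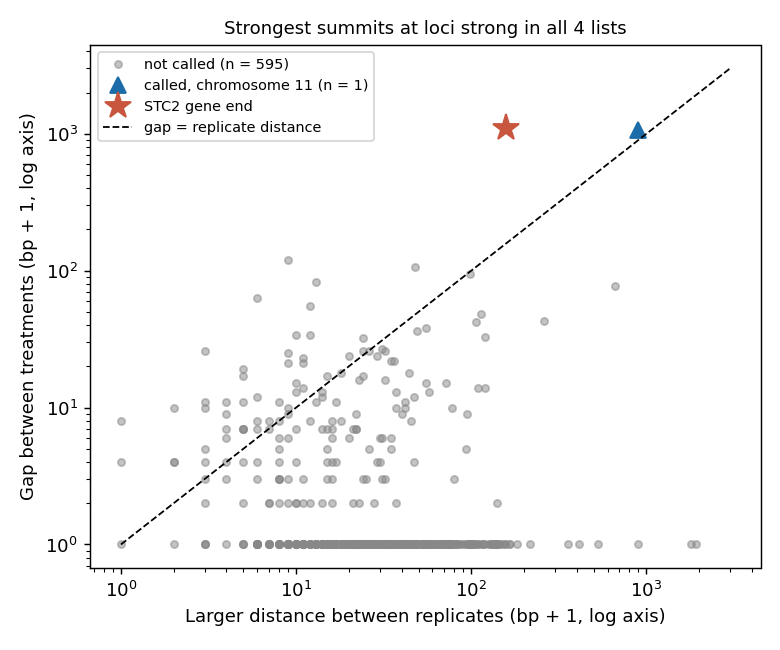
Gap between the treatments (vertical, bp + 1, log axis) against the larger distance between replicates (horizontal, bp + 1, log axis) at 597 loci with a summit of rank 1 to 1000 in each library; on the dashed line both are equal. STC2 (star) has a gap of 1104 bp and a replicate distance of 156 bp, the called locus on chromosome 11 (triangle) 1056 and 889 bp, and the other 595 loci have gaps of at most 119 bp.

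The activin lists held more summits in the STC2 region than the palbociclib lists. The counts were 13 and 10 in activin replicates 1 and 2, or 11.5 ± 2.12 (SD, n = 2). They were 8 and 6 in palbociclib replicates 1 and 2, or 7.0 ± 1.41 (SD, n = 2). The groups did not overlap, although the palbociclib lists were longer over the whole genome. Of 18477 windows of 100 kb with a summit in any library, 587 (3.18%) had both palbociclib counts below both activin counts, and 3264 (17.7%) had both above. Part of this imbalance goes with list length. At equal list lengths, 1240 windows had both palbociclib counts below and 1486 had both above. The STC2 counts were then 13 and 10 against 7 and 6. The share of 3.18% thus holds for the full lists only, and no share was computed at equal lengths. The STC2 region held 4.66 and 3.41 times the mean window count in the activin lists, and 2.35 and 1.70 times in the palbociclib lists. Only 3.14% and 5.75% of the windows held more summits in activin replicates 1 and 2, against 10.0% and 15.4% in palbociclib replicates 1 and 2.

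Weak summits and the interior of the gene each contributed to the difference in number. With a score of at least 5, the counts were 9 and 6 with activin and 7 and 6 with palbociclib, so the groups overlapped. The difference of the means then went from 4.5 to 1.0 summits. The gene interior, over 2 kb from either end, held 6 summits in activin replicate 1, 0 in activin replicate 2, 1 in palbociclib replicate 1 and 0 in palbociclib replicate 2. Leaving the interior out gave a difference of 2.0 summits. Activin replicate 1 then had as many summits as palbociclib replicate 1, so the groups were no longer separate. The interior summits of activin replicate 1 lay between 172746958 and 172750202, with scores from 2.79 to 44.6, the strongest at 172750202 with rank 7968. The single interior summit of palbociclib replicate 1 lay at 172748539, with a score of 19.1 and rank 19310, and was 117 bp from the one that activin replicate 1 listed at 172748422.

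**Figure D4:**
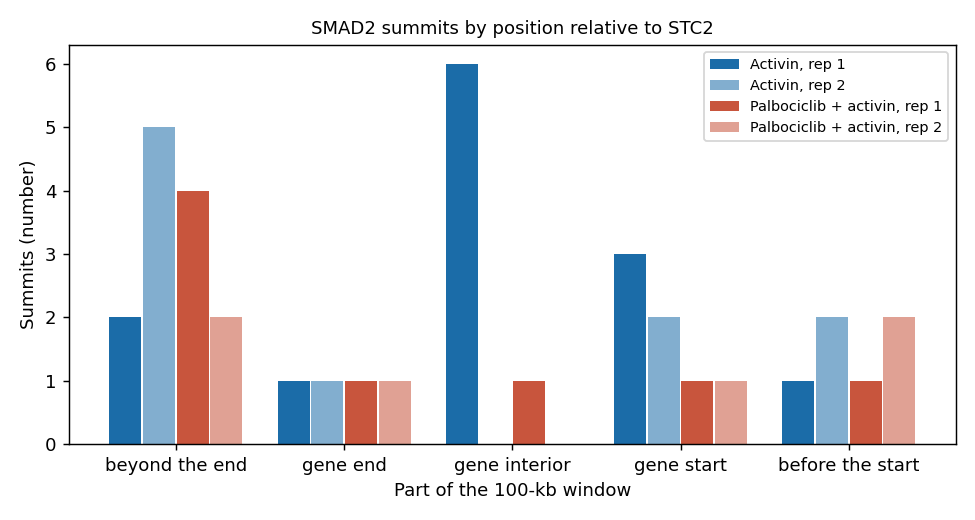
Number of summits (vertical) in 5 parts of the 100-kb window (horizontal; the gene end and gene start parts reach 2 kb to either side), with 1 bar for each library. Each library has 1 summit at the gene end, and the 6 summits of activin replicate 1 in the gene interior stand against 0, 1 and 0 in the other libraries.

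Upstream of the gene start, some weaker summits recurred between the activin lists and palbociclib replicate 2. Palbociclib replicate 1 listed none between 172755478 and 172791977. Activin replicate 1 listed 172756960 with a score of 10.9, and palbociclib replicate 2 listed 172756985 with a score of 18.8, 25 bp away. Both activin lists had a summit 1.0 to 1.1 kb before the start, at 172757575 with a score of 20.7 in replicate 1 and at 172757466 with a score of 45.0 in replicate 2. The latter ranked 7697 and was the third strongest summit of its list in the region, while neither palbociclib list had one within 200 bp. Between 2.4 and 2.6 kb before the start, summits lay at 172758893 and 172759068 in activin replicates 1 and 2, with scores of 3.0 and 9.95, and at 172759064 in palbociclib replicate 2, with a score of 12.7. Palbociclib replicate 2 also listed 172758507, with a score of 6.27.

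Further away, the region was sparse. Beyond the gene end, 3 lists had a summit within 16 bp of each other, from 172710787 to 172710803, about 30.9 kb from the gene, with scores of 7.54, 7.52 and 9.35; palbociclib replicate 2 had none there. Both activin lists and palbociclib replicate 2 had one from 172719258 to 172719317, with scores of 11.1, 4.76 and 6.43. Between 172721097 and 172721531, activin replicate 2 listed 1 summit, palbociclib replicate 1 listed 2 and palbociclib replicate 2 listed 1, with scores from 1.74 to 7.42. At 172739241 and 172739275, 2.5 and 2.4 kb past the gene end, palbociclib replicate 1 and activin replicate 2 had summits with scores of 15.6 and 4.83. A summit at 172733542 occurred in activin replicate 2 alone, with a score of 3.03. Before the gene start, activin replicate 2 and palbociclib replicate 1 listed summits at 172791883 and 172791977, with scores of 6.62 and 5.98. Apart from 172733542, each of these distant places held summits of both treatments.

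Chained over gaps of at most 200 bp, the 37 summits formed 19 regions. None was found in 4 lists, 5 in 3, 7 in 2 and 7 in 1. The regions of both activin lists and no palbociclib list were the gene-end region from 172742728 to 172742841 and the one from 172757466 to 172757575. The gene-end region from 172741468 to 172741624 was the single one of both palbociclib lists and no activin list. The other 9 regions found in 2 or 3 lists held both treatments. Just outside the region on the start side, activin replicate 2 listed a summit at 172801413, with a score of 4.57, and the other 3 lists had none before 172879498. Past the gene end, the nearest summits outside the region lay between 172571560 and 172593054 in the 4 lists.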

How the data were processed

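SMAD2 ChIP-seq libraries were prepared from T47D cells with an Ion Torrent fragment kit and PCR, per the labels' protocols. Per the submitters' processing notes, the tools were Bowtie 1.1.0, Picard and MACS2 2.0.9, on build hg19. Their settings and order are not given in those notes. The authors deposited 1 list of summits for each library, with a score read as −log10 q against the input, since the lowest scores were 1.31 to 1.34 and a q of 0.05 is 1.30. Lists hold no read numbers, so depth and its precision are unknown.

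Positions were made 1-based, chromosomes 1 to 22 and X were kept, and summits were ranked by score, with ties in order of position. The region, gene span, strong loci (rank 1 to 1000, chained over 2 kb) and windows of 100 kb were processed with Python 3.11.15, numpy 2.4.6, pandas 2.3.3 and matplotlib 3.10.9. The code was tested on simulated data. No test was run: the locus was chosen on this contrast, and 2 against 2 libraries give an exact two-sided permutation p of at least 0.333. The members and lists were chosen with earlier results of these data known. Named were the 3 strongest summits of each list in the region, the rest by range or place, and the called loci with the best ranks. STC1, PAPPA, PAPPA2, IGFBP4, IGFBP5 and IGF1R were not analysed here for want of an hg19 annotation.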

Additional observations from a re-analysis of the deposited data

How the results depend on the processing

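The shift of 1238.5 bp at the STC2 end could not move under most alternatives, which say nothing on its stability. Each list has 1 gene-end summit, with a score of 292 or more, so a score of at least 5 and the other ways of taking the summit return 1238.5 bp. The replicate block gives 1238.5 bp by construction, and leaving out 1 of 2 replicates moves a mean by less than their SD. Rank deviations of libraries with the same number were not shared (correlation −0.077 over 23476 regions, which are not replicates), and 2 pairs do not show how libraries were prepared. The difference of 4.5 summits in the region kept its direction under all 10 alternatives, but was 1.0 with a score of at least 5, 1.5 with a score of at least 10 and 2.0 without the gene interior, the last chosen after seeing the data. For the 2 shifted loci, the count was 28 for rank 1 to 5000, 0 with a chaining distance of 1 kb, 4 with a gap over 100 bp, and 2 to 8 without each library (8 without activin replicate 1). Windows with more summits after palbociclib (3264) numbered 1486 at equal list lengths and 5031 to 6121 without each library, where a group of 1 library has a looser condition. Windows with fewer (587) numbered 1240 at equal list lengths and 1317 to 2499 without each library. Strong loci absent from 1 list (4) numbered 3 to 5 at 2 kb, 500 bp and rank 1 to 500, and 18 for rank 1 to 5000. The rank limit also changes how many loci are compared, so counts under other rank limits do not show a change in share. The STC2 start side was not among the 3 at 2 kb. The score minimum was not run for strong loci, as planned. Unknown depth and the lack of peak widths limit each count and each missing summit.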
